A study of Mus musculus and Homo sapiens with 41 samples.

Results

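In Tet2-knockout (KO) mouse embryonic stem cells (mESCs), 2267 genomic regions carried peaks of ubiquitylated histone H2A (H2AK119ub) that overlapped no H2AK119ub peak of wild-type (WT) mESCs. They were chosen from the peak lists themselves. Bases on the autosomes, X and Y that lay in peaks of at least 2 of the 3 untransfected KO libraries were merged into 30561 regions, and a region was kept when no peak of 6 WT libraries, 3 untransfected and 3 treated with control siRNA (siNC), overlapped it. The 2267 regions, called KO-only regions below, were 7.42% of all KO regions and 0.833 of 13.7 Mb. Their presence in KO and absence in WT libraries is therefore how they were chosen and not a result. Of them 50.9% were copies of 1 tandemly repeated sequence close to primer sites for the A subfamily of LINE-1 elements. The sequence was found from these regions, and 3.07% of the other KO regions were such copies. Of the KO-only array regions 74.8% had a peak in at least 1 of 9 libraries of siRNA-treated KO mESCs, which had no part in the choice. The share was 97.1% in array regions that WT peaks overlapped. It was 48.7% in all KO-only regions and 48.2% in the other KO regions.

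The series asked how TET2, an enzyme that oxidizes 5-methylcytosine, and the RNA-binding protein MBD6 bear on H2AK119ub, using CUT&Tag, in which an antibody guides a transposase to tag the chromatin around a histone mark. From mouse there were 29 libraries in 10 groups. Untransfected WT and Tet2 KO mESCs, WT mESCs with siNC, and Tet2 KO mESCs with siNC, siMbd6 or siNsun2 gave 3 H2AK119ub libraries each. Mouse haematopoietic stem and progenitor cells (HSPCs), the lineage-negative c-Kit+ cells of bone marrow from mice of 6 to 8 weeks, gave 3 H2AK119ub libraries each as WT with shNC, Tet2 KO with shNC and Tet2 KO with shMbd6, and untransfected WT mESCs gave 2 libraries of BAP1. All mESCs were grown in serum with LIF and 2 kinase inhibitors and cleared of feeder cells, siRNA was given by lipofection and shRNA by electroporation. The methods name 1 source of WT and KO mESCs and no second clone, so genotype and line cannot be told apart in mESCs. The study calls its replicates biological without saying whether they were separate cultures or animals, so spreads and p-values here measure differences between libraries. The lists hold no expression values, so the labelled cell types were not checked against marker genes.

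H2AK119ub is laid down by Polycomb repressive complex 1 and is typical of silent developmental genes in embryonic stem cells. It is removed by the PR-DUB complex, whose catalytic subunit is BAP1 and to which MBD6 can bind, while NSUN2 is an RNA methyltransferase that makes 5-methylcytosine. LINE-1 elements are self-copying transposons, and in the mouse the young subfamilies (A, Tf, Gf) begin with a row of near-identical monomers that act as their promoter, each subfamily with its own monomer.

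The sequences of the tandem units and of a KO-only array region are shown first. They are given on the + strand of mm10 (GRCm38, RefSeq assembly), 5′ to 3′, with CG dinucleotides in capitals. The first line is the 208-base tandem unit (chr14:42383514-42383721) found by looking for the repeat shared by the largest number of KO-only regions. The second line is a 212-base tandem unit (chr17:17554599-17554810) from other KO regions, those that hold the study's primer sites for LINE-1 Tf, shown because it serves as the contrast below. The third is the middle of the KO-only region longest in all 3 KO libraries, between genes with Tbx18 the nearest (chr9:87839387-87839686).
208-base unit of KO-only regions: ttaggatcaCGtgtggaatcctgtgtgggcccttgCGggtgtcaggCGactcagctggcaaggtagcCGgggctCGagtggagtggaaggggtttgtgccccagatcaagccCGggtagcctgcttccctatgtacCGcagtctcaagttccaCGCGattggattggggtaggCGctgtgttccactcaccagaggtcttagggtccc
212-base unit of other KO regions: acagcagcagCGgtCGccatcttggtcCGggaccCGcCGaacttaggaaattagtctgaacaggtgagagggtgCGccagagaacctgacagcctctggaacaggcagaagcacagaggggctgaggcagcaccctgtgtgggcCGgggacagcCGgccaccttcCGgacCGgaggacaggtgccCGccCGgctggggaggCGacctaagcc
KO-only region nearest Tbx18: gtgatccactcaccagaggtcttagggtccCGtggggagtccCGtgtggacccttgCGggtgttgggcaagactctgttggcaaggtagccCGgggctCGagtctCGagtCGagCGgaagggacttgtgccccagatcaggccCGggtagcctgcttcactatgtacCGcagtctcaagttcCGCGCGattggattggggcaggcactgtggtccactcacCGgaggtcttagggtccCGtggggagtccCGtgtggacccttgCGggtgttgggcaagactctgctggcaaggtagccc

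The next lines show KO-only regions outside the arrays. One lies at the start of Aarsd1 (chr11:101416951-101417250) and is unique sequence. The other, near Fzd6 (chr15:38974806-38975105), is a simple repeat, shown because it had a peak in all 9 siRNA-treated KO mESC libraries and all 9 HSPC libraries.
KO-only region at Aarsd1: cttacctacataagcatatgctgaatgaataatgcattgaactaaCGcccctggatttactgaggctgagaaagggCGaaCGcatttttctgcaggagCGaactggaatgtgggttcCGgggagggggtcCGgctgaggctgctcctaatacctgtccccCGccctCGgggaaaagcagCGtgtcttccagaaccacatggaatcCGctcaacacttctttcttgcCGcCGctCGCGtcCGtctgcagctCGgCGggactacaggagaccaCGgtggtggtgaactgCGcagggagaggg
KO-only region nearest Fzd6: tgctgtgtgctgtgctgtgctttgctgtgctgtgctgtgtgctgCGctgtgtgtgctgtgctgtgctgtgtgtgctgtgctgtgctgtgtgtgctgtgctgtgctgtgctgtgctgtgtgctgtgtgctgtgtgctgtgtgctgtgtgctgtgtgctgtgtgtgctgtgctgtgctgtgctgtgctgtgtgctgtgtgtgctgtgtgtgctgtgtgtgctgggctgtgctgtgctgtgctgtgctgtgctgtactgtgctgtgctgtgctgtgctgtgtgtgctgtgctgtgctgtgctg

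Each library was deposited as a list of peaks, so sequencing depth is unknown. A base listed at 0, outside every peak of a library, could lack the mark or could have had too few reads. The 9 libraries used in the choice held 24360 to 37392 peaks, the 9 of siRNA-treated KO mESCs 4251 to 12139, and the 9 of HSPCs 1398 to 8286. H2AK119ub libraries of untransfected and WT siNC mESCs covered 9.66 to 16.98 Mb, and those of siRNA-treated KO mESCs 1.82 to 5.64 Mb. KO shNC HSPC libraries stood apart with 0.648 to 0.681 Mb of cover and 205 to 231 peaks on the Drosophila spike-in, against 1.89 to 3.95 Mb and 48 to 95 such peaks in the other HSPC libraries.

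KO-only regions were short. Their median length was 312 bases (interquartile range 225 to 467.5, from 1 to 2075), against 405 in the other 28294 KO regions. Of them 1048 (46.2%) had bases shared by all 3 KO libraries, against 69.1% of the others, and 815 had no base in KO library 1, 180 none in library 2 and 224 none in library 3. KO library 1 was the smallest of the 3, with 11.6 Mb of cover against 16.8 and 16.9 Mb. The peaks themselves were of ordinary height, with a median deposited fold enrichment of 4.99, 4.82 and 4.81 in the 3 KO libraries against 4.69, 4.47 and 4.53 at the other KO regions. The nearest WT peak lay a median of 23634 bases away, within 1000 bases for 167 of the regions and within 100 bases for 28. Just inside the rule, a region on chromosome 8 (24938842 to 24939048) touched a WT peak without sharing a base, and 1 on chromosome 9 (21987898 to 21988036) lay 1 base from one. Just outside it, a 101-base region on chromosome 17 (11982049 to 11982149) shared 1 base with a WT peak.

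The KO-only regions were largely repeats. Soft-masked sequence, which the assembly marks as repetitive, made up 74.0% of their bases, against 25.7% in the other KO regions and 36.4% of the genome. Copies of the 208-base unit at 80% identity or more filled at least 50% of the bases in 1154 KO-only regions (50.9%), against 868 of the others (3.07%). The unit was found from these regions, so the first count describes how it was found. The 212-base unit gave the opposite order, with 67 KO-only regions (2.96%) against 2226 others (7.87%). It was found from KO regions that overlap a WT peak, so this order too describes how it was found. Both units are about equally common in the genome, with 15347 copies in 4829 arrays (2.46 Mb) of the first and 14929 copies in 4399 arrays (2.47 Mb) of the second. Both are rich in CG dinucleotides, with 10 in the 208-base unit (60.1% G and C) and 13 in the 212-base unit (66.0%).

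The array regions lay close to primer sites for LINE-1 A. No repeat annotation was used here, so the subfamily rests on these sites alone. A primer site that the study used for L1MdA was present within 8 kb of 1131 of the 1154 KO-only array regions (98.0%), at a median distance of 510 bases (interquartile range 403 to 568). The same site was near 99.0% of the other array regions but near 8.09% of KO-only regions and 10.5% of other KO regions outside arrays. Of the primer sites for L1MdGf, 1 was near 92.3% of KO-only array regions and the other near 12.1%. Sites for the pair of L1MdTf amplicons were near 0.867 to 1.99%. Sites for the retrovirus-like IAPEz were near 0.347 to 1.73% of KO-only array regions. Of 425 KO-only array regions of at least 500 bases, 262 repeated with a clear period, which was 208 bases in 213 of them and 201 bases in 43. The positions of single arrays are uncertain, because the median 50-base stretch of a KO-only array region occurs at 517 places in the genome and the study's aligner places such a read at 1 of its best matches. Outside the arrays the median stretch occurs once. KO-only array regions were shorter (median 440 bases) and made of rarer stretches than the 868 array regions that WT peaks overlapped (706.5 bases and 1293.5 places).

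Over all 4829 arrays of the 208-base unit, with no choice of regions, the KO libraries listed peaks on many more arrays than the WT libraries. A peak lay on 37.3, 44.8 and 45.9% of arrays in the 3 untransfected KO libraries. It lay on 3.50, 8.88 and 12.5% in untransfected WT and on 2.65, 10.7 and 10.6% in WT siNC libraries. KO siNC cells, which the choice did not use, had peaks on 13.5, 27.8 and 27.1% of arrays, above every WT library although these libraries covered 1.82 to 4.30 Mb in all. Arrays made up 8.31, 7.35 and 7.38% of the covered bases of untransfected KO libraries, 17.5, 17.1 and 17.2% in KO siNC, and 0.484 to 1.46% in untransfected WT. Since the unit was picked from KO-only regions, the contrast with WT is given as a description and without a test.

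**Figure D1:**
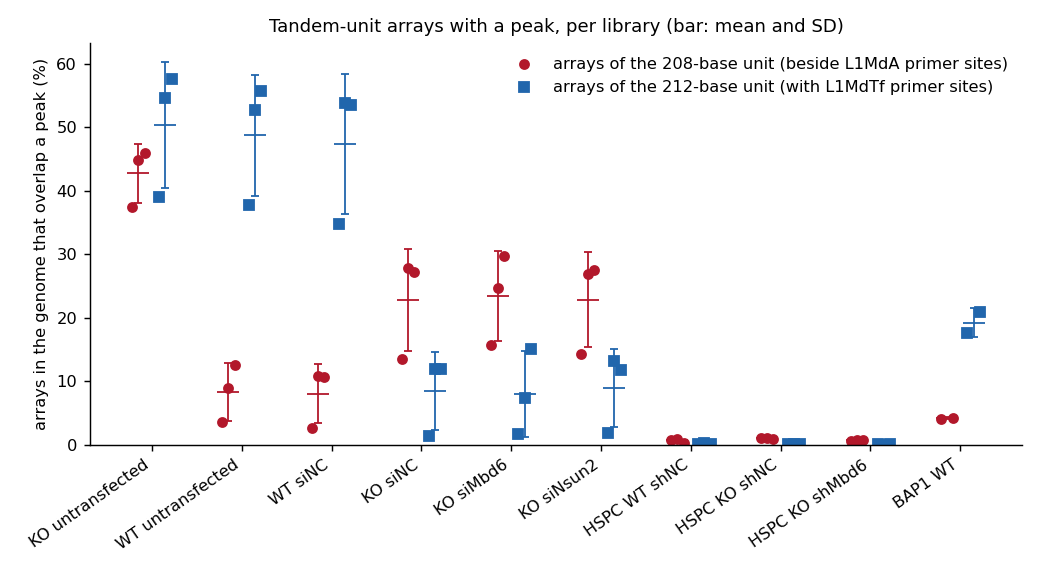
Percentage of genomic arrays of the 208-base and of the 212-base unit that overlap a peak (y axis), for each mouse library (points, by group on the x axis), with the group mean and SD as bars. For the 208-base unit untransfected KO libraries sit between 37.3 and 45.9% and all 6 WT mESC H2AK119ub libraries at or below 12.5%, while for the 212-base unit both genotypes overlap without transfection. The 208-base unit was picked from KO-only regions and the 212-base unit from KO regions that overlap a WT peak.

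The 212-base unit did not follow this order. It was picked from KO regions that overlap a WT peak, so this contrast is a description as well. In untransfected cells 39.1, 54.6 and 57.5% of its arrays carried a peak in KO and 37.8, 52.6 and 55.7% in WT, so the groups overlapped. WT siNC libraries gave 34.7, 53.8 and 53.5%, whereas KO siNC libraries gave 1.296, 11.89 and 11.96%. BAP1 was also unequal between the units, with a peak on 17.6 and 20.8% of arrays of the 212-base unit and on 4.02 and 4.25% of arrays of the 208-base unit in WT cells. BAP1 was mapped in WT cells only, so its place on the arrays in KO cells is not known here. Among the KO-only regions themselves 43 and 35 overlapped a BAP1 peak (1.90 and 1.54%), against 4.78 and 5.49% of the other KO regions.

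Exchanging the genotypes gave regions of another kind. The unit that defines array regions was found from KO-only regions, so these counts are a description. Of 31052 WT regions, 3365 overlapped no untransfected KO peak, and 0 of them were array regions, with 17.7% of their bases soft-masked. The like choice for KO, against untransfected WT libraries alone, gave 3485 of 30561 regions. Of those 1355 (38.9%) were array regions, with 63.9% of the bases soft-masked. Of the 30816 WT siNC regions, 3296 overlapped no untransfected KO peak and again 0 were array regions. Between the WT groups, 61 of 1760 WT regions without a WT siNC peak (3.47%) and 35 of 1769 in the other direction (1.98%) were array regions. In siRNA-treated cells, 740 of 6344 KO siNC regions overlapped no WT peak, and 429 of these (58.0%) were array regions. This last set was formed without the untransfected KO libraries, but with the same 6 WT libraries.

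The choice was also repeated with libraries left out. When all libraries with 1 replicate number were left out, 1998, 1666 and 1840 regions were chosen from the rest, for numbers 1, 2 and 3. Of these regions, 54.8, 82.3 and 80.5% had a peak in the left-out KO library, against 3.65, 13.8 and 20.2% in the left-out untransfected WT library. The split into arrays and the rest is a description, because the 208-base unit was found from regions chosen with all of these libraries. Of the array regions among them, 76.4, 97.4 and 97.8% had a peak in the left-out KO library, against 0.539, 4.96 and 13.1% in the left-out WT library. Outside arrays the order was the same but the gap smaller, with 27.7, 59.1 and 55.8% in the left-out KO and 7.57, 27.4 and 30.5% in the left-out WT library. The exchanged choice, WT without KO, gave 33.1, 68.3 and 67.8% in the left-out WT and 14.6, 37.6 and 38.0% in the left-out KO library. In both directions the left-out library of the genotype required to have a peak held the higher share.

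**Figure D2:**
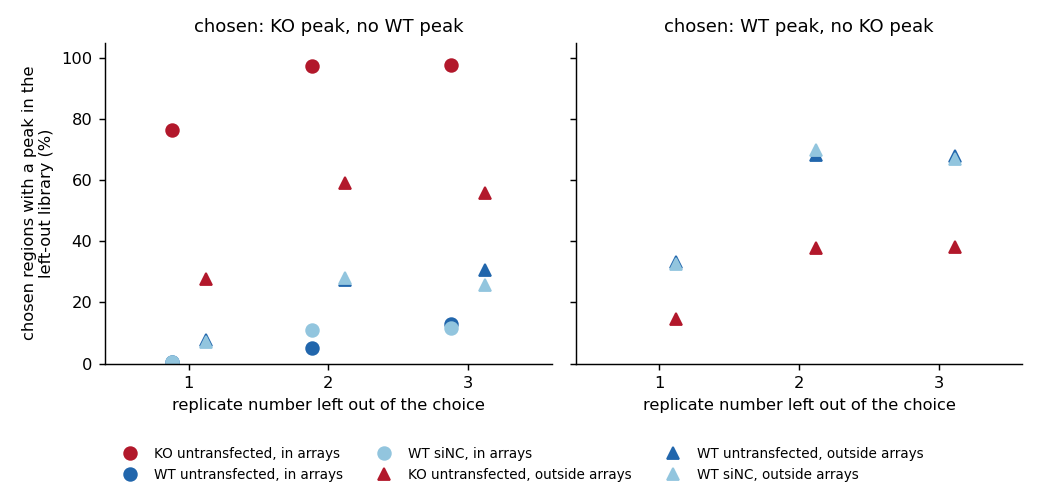
Percentage of chosen regions with a peak in the left-out library (y axis), by the replicate number left out (x axis), in arrays (circles) and outside them (triangles), for regions chosen with a KO peak and no WT peak on the left and the exchanged choice, which held no array regions to plot, on the right. On the left, the left-out KO library holds 76.4 to 97.8% of array regions and the left-out untransfected WT library 0.539 to 13.1%, with a narrower gap outside arrays.

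A second split used only the untransfected libraries for the choice and read the siNC libraries of both genotypes, although the WT siNC libraries had a part in finding the unit. It gave 1355 array regions, of which 16.8, 53.4 and 50.3% had a peak in KO siNC and 0.664, 8.78 and 7.68% in WT siNC libraries. It also gave 2130 regions outside arrays, and there the order turned, with 4.13, 9.30 and 9.15% in KO siNC and 11.5, 29.2 and 28.5% in WT siNC libraries. KO siNC libraries covered 1.82 to 4.30 Mb against 10.0 to 16.98 Mb in WT siNC, and the part of this difference in the order outside arrays was not tested.

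KO-only regions lay far from transcription start sites. Of them 1489 (65.7%) were intergenic, 515 (22.7%) intronic and 147 (6.48%) exonic, and 116 (5.12%) lay within 1 kb of the start site (TSS) of a protein-coding gene. In the other KO regions 36.2% were intergenic and 32.9% lay at a TSS. The median distance to a TSS was 75.6 kb against 11.7 kb. Array regions were the farthest, with 80.6% intergenic, 1 region at a TSS (Olfr1298, an olfactory receptor gene) and a median of 172 kb. KO-only regions outside arrays were intermediate, with 10.3% at a TSS and a median of 30.1 kb. The X chromosome held 6.75% of KO-only regions against 2.42% of the others, so that 18.3% of all KO regions on X were KO-only, against 5.14 to 10.4% on the autosomes. On Y, 9 of 43 were (20.9%). Of array regions among the KO-only set, 10.9% were on X, and of the rest 2.43%. Arrays of the unit are themselves common on X, with 497 of the 4829 in the genome.

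Of the KO-only regions 753 (33.2%) lay in the body of a protein-coding gene, against 59.7% of the other KO regions. They fell in 718 genes, and 649 of these held 1. Cntnap2, which encodes a neuronal adhesion protein and spans 2244.86 kb on chromosome 6 (45059357 to 47304213), held 7, of which 4 were array regions. Fgfr2, a fibroblast growth factor receptor gene whose annotation here runs from 130162451 to 133123350 on chromosome 7, held 4 with 0 in arrays, and this annotated span is so long that these may lie outside the gene as usually drawn. Sgcz, a sarcoglycan gene on chromosome 8, held 4 with 2 in arrays. Dmd, the dystrophin gene on X, and Lsamp, a neuronal adhesion gene on chromosome 16, each held 3, all array regions, and Frmd4a on chromosome 2 held 3 outside arrays. All 6 genes are long, from 596 to 2961 kb, and hold 6 to 43 KO regions each.

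Of all 21938 protein-coding genes, 255 (1.16%) had a KO-only region within 5 kb of a TSS, against 11879 (54.1%) with another KO region. Of 70 developmental transcription factors, the classic Polycomb targets, 60 had another KO region and 3 a KO-only one, Sox7, Lhx1 and Lhx5. Of 39 HOX genes 33 had another and 1 (Hoxd11) a KO-only region. Of 20 pluripotency genes, 2 had a KO-only region, the reprogramming factor Klf4 and the let-7 regulator Lin28a, both outside arrays. Of 56 clustered protocadherin genes, which code neuronal surface proteins, 5 had one, but these rest on 3 regions, 2 of which are shared by a pair of neighbouring genes. In the receptor families that are mostly silent outside sensory neurons, 3 of 330 vomeronasal genes (Vmn1r204, Vmn2r44 and Vmn2r72, all arrays) and 8 of 1134 olfactory genes had one, where another KO region was near 5 and 24.

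Other lists gave few or none. Germline genes gave 2 of 20 (Asz1 and Hormad1, of the piRNA pathway and of meiotic chromosomes), imprinted genes 1 of 21 (Kcnq1), zinc finger genes 7 of 468, solute carriers 3 of 385 and keratins 3 of 113. Potassium and sodium channels gave 1 of 98, again Kcnq1. Histone cluster genes (67), housekeeping genes (25), the PR-DUB and 5-methylcytosine pathway (25), Polycomb subunits (28), metallothioneins (4), cadherins outside the clusters (29), glutamate and GABA receptors (47), Prss and serpin genes (100) and cytochromes P450 (100) gave 0 within 5 kb of a TSS. In gene bodies, which differ in length between lists, KO-only regions lay in 20 of 56 clustered protocadherins (35.7%), 5 of 29 other cadherins (17.2%), 4 of 47 glutamate and GABA receptors (8.51%), 3 of 28 Polycomb subunits (10.7%), and 3 of 20 genes each for pluripotency and germline, against 3.27% of all genes. Bodies of clustered protocadherins overlap, so 1 region can count for several genes. The region near Pcdha6 alone lies in the bodies of Pcdha1, Pcdha2, Pcdha3, Pcdha4, Pcdha5 and Pcdha6. Of 10 single genes looked up by name, Vmn1r204 had a KO-only region near its TSS, and Tet2, Mbd6, Nsun2, Bap1, Mt1, Hoxa9, Nanog, Pou5f1 and Actb had none. Another KO region lay near or in Mbd6, Nsun2, Bap1, Mt1, Hoxa9, Nanog and Actb, but not Tet2, Pou5f1 or Vmn1r204.

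The 12 KO-only regions longest in all 3 KO libraries were 11 arrays and 1 other region. The longest lies between genes on chromosome 9 (87838708 to 87840366), 107 kb from Tbx18, which encodes a T-box transcription factor, and was covered over 1452, 1659 and 1659 bases in the KO libraries. In cells that had no part in the choice it was covered over 494, 844 and 926 bases with siNC, 513, 969 and 1466 with siMbd6 and 403, 1384 and 1418 with siNsun2, and it was listed at 0 in all 9 HSPC libraries. The 3 siRNA groups overlapped at this array. An array in an intron of Sh3rf3, a ubiquitin ligase gene (chromosome 10, 59033426 to 59034832), was covered over 1366, 1407 and 1407 bases without transfection. Its cover ran from 0 to 1143 bases with siNC, 0 to 980 with siMbd6 and 490 to 695 with siNsun2.

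Further arrays of this kind lay in introns of Supt3, a subunit gene of the SAGA coactivator complex (chromosome 17, 45109416 to 45110783), and of Lingo2, a neuronal membrane protein gene (chromosome 4, 35866828 to 35868053). Between genes, arrays nearest Ipo11, Kcnd2, Mctp2, Atoh1, Arhgap36, Plxdc2 and Dmac1 completed the 11. These 11 arrays had a peak in 3 to 9 of the 9 siRNA libraries, and in the HSPC libraries in 0 to 2. The exception to the array sequence lay in an intron of Akap9, which encodes a scaffold protein of the centrosome and Golgi (chromosome 5, 4053188 to 4054322). It was covered over 1104, 1135 and 1093 bases without transfection and over 1082 to 1135 of its 1135 bases in every siRNA library, and was listed at 0 in all HSPC and both BAP1 libraries. It was the most evenly covered of the 12. Of its bases 89.96% are soft-masked, and its median 50-base stretch occurs at 8 places.

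**Figure D3:**
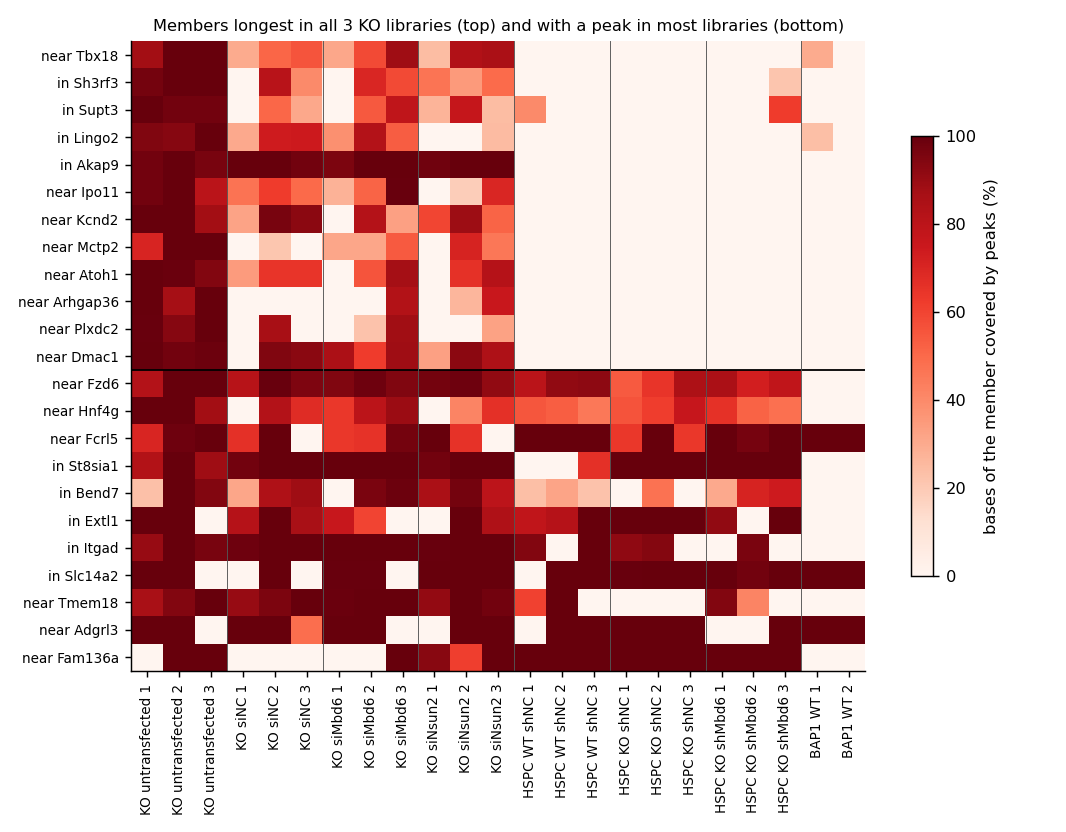
Percentage of the bases of single KO-only regions (rows) covered by peaks in each KO mESC, HSPC and BAP1 library (columns), on a colour scale from 0 to 100%. The upper rows are the regions longest in all 3 KO libraries, and they are largely filled in the untransfected KO columns used to choose them. In siRNA columns they run from empty to full, and in HSPC columns they are nearly empty. The lower rows, 11 regions chosen for a peak in the most libraries, run through both mESC and HSPC columns.

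Of the 116 KO-only regions within 1 kb of a TSS, 23 had a peak in at least 1 siRNA library and 15 in at least 1 HSPC library. The longest lay at Esco1, a cohesin acetyltransferase gene, with 722 bases in KO libraries 1 and 3 and 0 in library 2. At Aarsd1, named for an alanyl-tRNA editing domain, 641 bases were covered in libraries 2 and 3 and 0 in library 1. The region at Ctcfl, the germline relative of CTCF, had 226, 573 and 573 bases, and that at Kmt2d, a histone H3K4 methyltransferase gene, 0, 491 and 491. The regions at Ptprj, a receptor phosphatase gene (0, 503 and 503 bases), Steap1 (0, 487 and 487), Ak4, an adenylate kinase gene (0, 457 and 457), and Tbx6, a mesoderm T-box factor gene (0, 410 and 410), were likewise absent from library 1. Trim21, an antibody receptor gene, had 428, 428 and 0 bases, and Eva1b 400, 371 and 408. All of these were listed at 0 in all 9 siRNA and all 9 HSPC libraries, and WT peaks lay 183 to 50086 bases away.

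The 2 exceptions among these 12 promoter regions were the array at Olfr1298, with a peak in 3 siRNA libraries, and a region in the protocadherin alpha cluster near Pcdha6, with a peak in 7. The latter was covered over 592, 592 and 0 bases in the KO libraries, over 0, 347 and 455 with siNC, 333, 422 and 592 with siMbd6, and 0, 485 and 592 with siNsun2. A WT peak lay 1179 bases from it.

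In siRNA-treated KO mESCs the KO-only regions were listed about as often as other KO regions, and arrays much more often than the rest. A peak was found on 196, 669 and 616 KO-only regions in the siNC libraries, on 269, 551 and 735 with siMbd6 and on 214, 618 and 667 with siNsun2. The libraries with number 1 were the lowest of each group, as they were in covered length, and the 3 groups overlapped. At least 1 of the 9 libraries had a peak on 1104 KO-only regions (48.7%), against 48.2% of the other KO regions. By sequence the shares parted, with 74.8% of KO-only array regions and 21.7% of KO-only regions outside arrays, against 97.1% of other array regions and 46.7% of others outside arrays. In all 9 libraries 57 KO-only regions had a peak, 36 arrays and 21 others, while 291 array regions and 872 others had none.

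**Figure D4:**
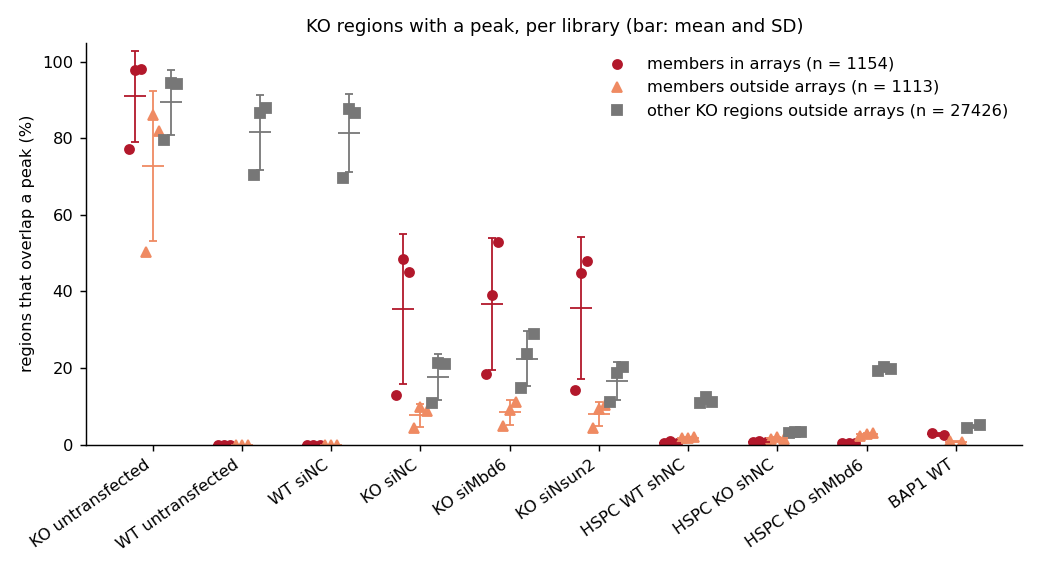
Percentage of regions that overlap a peak (y axis) in each library (points, by group on the x axis, with group means and SD as bars), for KO-only regions in arrays (circles), KO-only regions outside arrays (triangles) and other KO regions outside arrays (squares). The untransfected KO, untransfected WT and WT siNC groups were used in the choice, while in KO siRNA libraries 12.8 to 52.9% of array members and 4.31 to 11.2% of members outside arrays have a peak, and in HSPC libraries at most 0.867 and 2.96%.

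**Figure D5:**
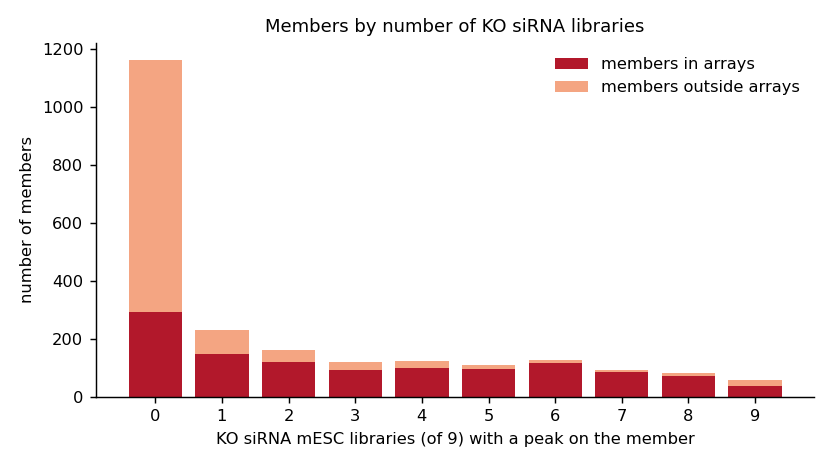
Number of KO-only regions (y axis) by how many of the 9 siRNA-treated KO mESC libraries have a peak on them (x axis), for array regions and for those outside arrays. Regions outside arrays pile up at 0 (872), while array regions spread from 291 at 0 to 36 at 9.

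No KO-only region passed the test for either knockdown in these cells. Covered kb per region was fitted with limma over the 9 siRNA libraries, and 711 KO-only regions, the ones with a peak in at least 3 libraries, were among 8257 KO regions tested. With siMbd6 0 of the 711 passed an adjusted p of 0.05, where 0.0363% of all tested regions did (3, all higher), and 10 of the 711 had an unadjusted p under 0.05. The median difference from siNC was 0.00167 kb for KO-only regions and 0.0213 kb for all tested, with 369 KO-only regions higher and 341 lower. With siNsun2 0 of 711 and 0% of all tested passed, 14 of the 711 had an unadjusted p under 0.05, and the median difference was 0.00400 against -0.00667 kb. The smallest limma adjusted p of a KO-only region was 0.5005 with siMbd6 and 0.267 with siNsun2. Both comparisons share the siNC libraries.

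Over the arrays as a whole the knockdown groups were also close to siNC. A peak lay on 22.8 ± 8.05% of 208-base arrays with siNC, 23.4 ± 7.05% with siMbd6 and 22.8 ± 7.49% with siNsun2 (SD, n = 3 each), and the groups overlapped (exact two-sided permutation p = 1 for both). As a share of covered bases, arrays made up 15.4, 15.1 and 14.2% with siMbd6 against 17.5, 17.1 and 17.2% with siNC. These groups did not overlap, with an exact permutation p = 0.1 (n = 3 each), the smallest that 3 against 3 libraries allow, and 0.3 after adjustment over 12 such tests. The covered length of arrays was 600.0 ± 223 kb with siMbd6 and 597 ± 242 kb with siNC, and the siMbd6 libraries covered 2.36 to 5.64 Mb in all against 1.82 to 4.30 Mb. With siNsun2 the share was 16.7, 17.9 and 16.9% (exact permutation p = 0.8, n = 3 each).

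HSPCs listed few of the KO-only regions. A peak lay on 22, 29 and 25 of them in WT shNC, on 24, 31 and 25 in KO shNC and on 28, 38 and 39 in KO shMbd6 libraries. At least 1 of the 9 HSPC libraries had a peak on 106 (4.68%), against 29.4% of the other KO regions. The share was 2.77% for array regions and 6.65% outside arrays, against 19.4 and 29.8% for other KO regions of each kind. Arrays as a whole were nearly empty too, with 0.642 ± 0.325% of 208-base arrays under a peak in WT shNC, 0.994 ± 0.0717% in KO shNC and 0.642 ± 0.126% in KO shMbd6 (SD, n = 3 each). By share of covered bases KO shNC libraries stood above, with 2.79, 2.48 and 1.95% against 0.237 to 0.830% in WT shNC (exact permutation p = 0.1, adjusted 0.3, n = 3 each). Their covered array length did not, with 18.1, 16.9 and 12.9 kb against 13.6, 18.6 and 4.54 kb in WT shNC (exact permutation p = 0.7, n = 3 each), in libraries whose total cover was lower. KO shMbd6 libraries lay below KO shNC without overlap in the share of covered bases (mean 0.333 against 2.41%) and in arrays with a peak, each with an exact permutation p = 0.1 (adjusted 0.3, n = 3 each), while their covered array length overlapped (mean 12.5 against 16.0 kb, exact permutation p = 0.3).

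Among regions listed in both cell types, that nearest Fzd6, a Wnt receptor gene (chromosome 15, 38974535 to 38975376), was covered over 685 to 837 of its 842 bases in siRNA-treated KO mESCs and over 457 to 774 in HSPCs. An array on chromosome 3 (3319333 to 3319884), nearest Hnf4g, was the only array among the 12 regions listed most often, with 251 to 421 of 552 bases in every HSPC library and a peak in 7 siRNA libraries. A region nearest Fcrl5 (chromosome 3, 87425002 to 87425340) was listed in all 9 HSPC and 7 siRNA libraries. It was also covered over all of its 339 bases in both BAP1 libraries of WT mESCs, where those nearest Fzd6 and Hnf4g were listed at 0. All 3 of these regions carried a peak in the 3 WT shNC HSPC libraries.

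In HSPCs 32 KO-only regions could be tested among 4514 KO regions. Comparing KO shNC with WT shNC, 4 were higher and 2 lower at a limma adjusted p under 0.05, where 0.31% of all tested regions were higher and 19.9% lower (20.2% either way). An intron of St8sia1, a ganglioside synthase gene (chromosome 6, 142957011 to 142957274), was covered over 0, 0 and 175 bases in WT shNC and over 264 in every KO library. The difference was 0.206 kb (SE 0.0464, limma adjusted p = 0.0190). An intron of Tbc1d4, a regulator gene of glucose transport (chromosome 14, 101552480 to 101552716), was covered over 237 bases in each KO shNC library and listed at 0 in all 6 others. The difference was 0.237 kb (SE 0.0144, limma adjusted p = 4.89e-05), and the comparison of KO shMbd6 with the same KO shNC libraries gave -0.237 kb (limma adjusted p = 1.78e-05). The median 50-base stretch of this region occurs at 20662 places in the genome.

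A repeat in an intron of the predicted gene Gm20388 on chromosome 8 (121463527 to 121463736) was listed at 0 in WT shNC and over 210 bases in all 6 KO HSPC libraries (0.210 kb, limma adjusted p = 6.67e-05). A region on chromosome 18 (79885858 to 79886045), 161 kb from Pard6g, was listed at 0 in WT shNC and over 188 bases in each KO shNC library (0.188 kb, limma adjusted p = 0.0357). The lower ones were an array in an intron of Olfr54, with 336, 306 and 292 bases in WT shNC and 0 in KO shNC (-0.311 kb, limma adjusted p = 0.0255), and an intron of Tbc1d22a, with 213, 127 and 213 bases against 0 (-0.184 kb, limma adjusted p = 0.00181). Libraries of a group that are all empty or all fully covered show no spread, so these p-values can be too small. The region in Tbc1d22a had HSPC peaks in WT shNC only. It passed the filter through that group, so the direction of its difference was fixed and its p-value lends no support.

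With shMbd6 in KO HSPCs 2 of the 32 were higher and 1 lower than with shNC, where 60.4% of all tested regions were higher and 0.199% lower (60.6% either way). The higher ones were an intron of Tspan14, a tetraspanin gene, with 191, 329 and 197 bases against 0 (0.239 kb, limma adjusted p = 0.0487), and the start of Msl3, a chromatin protein gene on X, with 73, 172 and 140 bases against 0 (0.128 kb, limma adjusted p = 0.00631). The lower one was that of Tbc1d4 above. It, the region at Msl3 and that in Tbc1d22a above each had peaks in 1 HSPC group only. The filter thus fixed their differences, and their p-values lend no support. Tspan14 was also covered over 0, 358 and 125 bases in WT shNC. Scaling every library to equal covered length gave 14 higher and 2 lower for KO against WT, with all 6 calls kept. For shMbd6 it turned the balance, to 0 higher and 14 lower, with 1 of the 3 calls kept. KO shNC libraries cover the least. Over all tested regions the scaled counts were 473 higher and 726 lower for KO against WT and 1090 higher and 483 lower for shMbd6. With 1 library left out, 3 of the 6 calls for KO against WT were made again without WT shNC 1 or 3, and 2 without WT shNC 2 or any 1 of the KO shNC libraries. The region in Gm20388 was among them each time, and those near Pard6g and in Olfr54 never. That in Tbc1d22a was not tested without a WT shNC library, nor that in Tbc1d4 without a KO shNC library. Too few libraries then had a peak. For shMbd6 1 of the 3 calls was made again each time, that at Msl3 without a KO shNC library and that in Tbc1d4 without a KO shMbd6 library, and that in Tspan14 never (limma adjusted p 0.0665 to 0.128). The region in Tbc1d4 was not tested without a KO shNC library, nor that at Msl3 without a KO shMbd6 library. Calls not made with all libraries numbered 1 without KO shNC 2 or 3 for KO against WT, and for shMbd6 1 to 4 without any library but KO shNC 1.

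KO-only regions outside arrays, 1113 in all, resembled other KO regions in their repeat content. Of their bases 27.4% were soft-masked, against 21.7% in other KO regions outside arrays, and in 75.3% of them the median 50-base stretch occurred once in the genome, against 85.0%. They were shorter (median 234 against 399 bases) and had fewer CG dinucleotides, with a median observed-over-expected ratio of 0.323 against 0.4998 and 0.565 in KO-only arrays. Bases in all 3 KO libraries were present in 206 (18.5%), against 842 KO-only array regions (73.0%) and 68.2% of others outside arrays. The rule needs 2 of 3 libraries, so most of them were listed in 2 libraries only.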

How the data were processed

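CUT&Tag libraries of 29 mouse samples were analysed. Groups came from the labels, and the libraries of human cells were not used here. Per the study's methods and processing notes, the authors trimmed reads with Trimmomatic 0.39, aligned them with Bowtie2 2.4.1 to mm10 and the Drosophila spike-in genome, removed duplicates with Picard and ran MACS2 in broad mode on every library (cutoff 0.01). The deposited lists hold peak positions, a fold enrichment (a ratio over local background), the mean −log10 p and q, and a score made from them. The authors' spike-in scaling is not part of the deposited peaks. Peak positions were used throughout, and the deposited fold and −log10 q values for description and 1 filter.

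Genes were GENCODE vM21 and sequence the RefSeq GRCm38 assembly, whose chromosome lengths hold all peaks. Copies of tandem units were found with BLAST+ 2.17.0 (80% identity, 100 bases, gaps up to 300 bases joined into arrays). Word copies used 50-base words on both strands. Primer sites of the study's bisulfite amplicons were searched on both strands within 8 kb, with C read as T and up to 1 mismatch, where exact matches had been planned. Covered kb per region was tested with limma 3.58.1 in R 4.3.3 (tables read with the data.table package, version 1.17.8), with the 9 libraries of an experiment in 1 model, regions with a peak in at least 3 libraries, a moderated two-sided test and Benjamini-Hochberg adjustment over all regions tested. Values over arrays were compared with exact permutation tests in SciPy 1.17.1, added after the data were seen. Scripts used Python 3.11.15, NumPy 2.4.6, numba 0.67.0 and matplotlib 3.10.9, and interval functions were checked against bedtools 2.31.1. The tests were tried on simulated data.

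The regions, the units and the 21 gene lists were chosen with earlier results of these data known. Regions were named by a rule. It takes the 12 longest in all 3 KO libraries (1 per gene), the 12 longest within 1 kb of a TSS, the 6 genes with most regions, the 12 with a peak in the most siRNA-treated KO mESC and HSPC libraries, every region called by limma, and a fixed gene set. The text gives a choice of these, and 1 region is not reported here. Alternatives covered the number of KO libraries required, the WT libraries used, distance, length and q filters, scaling, the replicate block and each library left out.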

Additional observations from a re-analysis of the deposited data

How the results depend on the processing

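The number of KO-only regions followed the rule, with 1068 when bases had to lie in all 3 KO libraries, 3485 when only the untransfected WT libraries were used, and 1245 to 2691 with 1 library left out (1245 without KO library 2 and 1286 without KO library 3). Stricter choices held more repeats. The soft-masked share was 90.8% with all 3 KO libraries, 76.1% for regions of at least 200 bases and 86.8% for peaks with a −log10 q of at least 5, and 69.9 to 85.1% with 1 library left out. The share in copies of the 208-base unit, in alternatives chosen after seeing the data, was 79.0, 54.5 and 71.4% with all 3 KO libraries, with WT peaks within 1000 bases also removing a region and with the q filter, 26.9% for copies of at least 90% identity, and 45.8 to 69.8% with 1 library left out.

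Counts with a peak in siNC, siMbd6 and siNsun2 fell from 838, 876 and 832 to 486, 484 and 505 when 2 of 3 libraries were required, and to 305, 322 and 297 with the q filter. In HSPCs 46 (WT shNC), 46 (KO shNC) and 69 (KO shMbd6) became 20, 20 and 23, and 15, 26 and 21. The q filter gave 2 KO-only calls for siMbd6 and 1 for siNsun2 in mESCs, where leaving out any library gave 0. For KO against WT HSPCs the 6 calls became 16 after scaling to equal covered length, 3 without the filter on low values, and 2 to 3 with 1 library left out. For shMbd6 the 3 became 14 after scaling, 1 with the q filter, and 1 to 5 with 1 library left out. Without the filter most regions had no spread and limma reported its moderation as unreliable. The exchanged choice (WT without KO) carried over to 33.1, 68.3 and 67.8% in the left-out library of its genotype, against 54.8, 82.3 and 80.5%. None of the 9 called differences changed sign under an alternative that tested it, but scaling turned the HSPC shMbd6 calls from 2 higher and 1 lower to 0 higher and 14 lower. It also turned the median difference of KO-only regions from 0.00167 to -0.0248 kb for siMbd6 and from -0.00167 to 0.320 kb for KO against WT HSPCs.

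In siRNA-treated KO mESCs the deviations of samples with the same replicate number correlated at 0.0297 to 0.268 (median 0.113). Samples with different numbers gave -0.223 to 0.104 (median -0.117). In HSPCs the ranges were -0.0210 to 0.0258 and -0.0292 to 0.0132. Same-number mESC samples thus tended to deviate together, most of all those with number 1, while HSPC samples did not. Number 1, whose libraries had the least cover in each group, gave 0.219 to 0.268. Numbers 2 and 3 gave 0.0297 to 0.0750 and 0.0792 to 0.135, which overlapped the values of different numbers. The main limma model and the permutation tests did not take the numbers as pairs. With a replicate block 0, 0, 5 and 4 KO-only regions were called in the comparisons of siMbd6, siNsun2, KO HSPCs and shMbd6, in place of 0, 0, 6 and 3. Depth is unknown, and a region listed at 0 may have been too thinly sequenced.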
